A study of Mus musculus with 4 samples.

Results

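The 9 genes examined here encode proteins that start, restrain or dissolve blood clots, and they were taken by symbol from the 17780 genes of the deposited lung expression table. F3, F10 and F13a1 are procoagulant, Thbd, Procr and Tfpi are anticoagulant, and Plat, Plau and Plaur are fibrinolytic. All 9 symbols were found once in the table, and all 9 had at least 1 FPKM in at least 1 library. The libraries came from C57BL/6 mice that had received vehicle, amiodarone, dabigatran, or amiodarone and dabigatran together for 28 days, with 1 library per treatment and 4 in all. The study's methods describe male C57BL/6J mice dosed by mouth on weekdays, with carboxymethylcellulose as the carrier in every group and dabigatran given as its prodrug dabigatran etexilate, and they place the collection of the left lung on a slightly earlier day than the labels. Whether a library holds 1 animal or a pool is not given in the sources used here.

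Amiodarone is an antiarrhythmic drug whose long use can injure the lung, and dabigatran blocks thrombin, the enzyme that turns fibrinogen into fibrin. Clotting outside a cut vessel starts when tissue factor, the product of F3, binds factor VIIa and activates factor X, the product of F10. Activated factor X then makes thrombin, and factor XIII, whose A chain is encoded by F13a1, crosslinks the fibrin. Thrombomodulin (Thbd) and the endothelial protein C receptor (Procr) turn thrombin towards activation of protein C, while tissue factor pathway inhibitor (Tfpi) blocks the first step. Plasmin dissolves fibrin, and it is made from plasminogen by tissue-type (Plat) and urokinase-type (Plau) plasminogen activator, the latter held at the cell surface by its receptor Plaur. The lung is rich in tissue factor and in thrombomodulin. Most circulating clotting factors come from the liver.

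Levels are in FPKM, a read count divided by transcript length and library size, so that genes can be compared with each other. Total estimated reads on genes ranged from 17498486 to 18903401 per library. A ratio between 2 libraries is given with its 95% counting interval, an exact Clopper-Pearson interval from the reads of that gene in both libraries. A gene is called higher or lower beyond counting error where the interval excludes 1. Sequenced fragments are not independent molecules, and with 1 library per group no spread between animals was measured, so these intervals compare libraries and not treatments, and no p-value is given. The lung markers Sftpc, at 19587 to 20385 FPKM, and Ager, at 2248 to 2462 FPKM, were high in all 4 libraries. Cardiac muscle markers summed to 1317 FPKM in the vehicle library and to between 626 and 930 FPKM in the others. The 6 liver markers summed to 2.97 FPKM with vehicle and to between 0.28 and 0.47 FPKM in the other libraries.

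In the vehicle library Thbd was the most abundant of the 9 genes at 198 FPKM. F3 followed at 40.7 FPKM and Plaur at 27.6 FPKM. Plat at 15.2 FPKM (95% counting interval 14.1 to 16.4) and Tfpi at 13.8 FPKM (12.7 to 14.9) were neighbours whose intervals overlapped. F13a1 was at 7.31 FPKM, Procr at 5.19 FPKM and Plau at 3.35 FPKM. F10 was the least abundant at 1.21 FPKM (0.914 to 1.57), from 56 reads. The first 6 places of this order were the same in all 4 libraries. F10 moved from the ninth place to the seventh in both libraries with amiodarone, ahead of Procr and Plau. The highest value of a gene over its lowest was 4.91 for F10, 2.61 for F13a1 and 2.02 for Plat, and it was 1.19 for Tfpi, the most even of the 9.

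**Figure D1:**
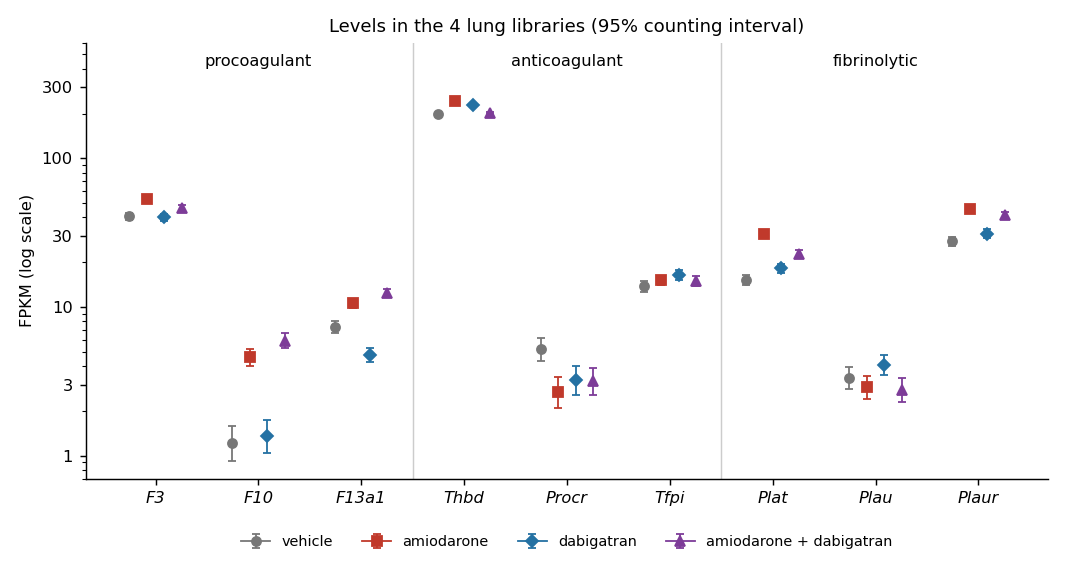
FPKM on a log scale of the 9 genes in the vehicle, amiodarone, dabigatran and amiodarone + dabigatran libraries, 1 point per library with its 95% counting interval and the genes set apart by role. F10 stands at 4.58 and 5.94 FPKM in the libraries with amiodarone and at 1.21 and 1.36 FPKM in those without.

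Amiodarone was set against vehicle to see which of the 9 genes differed in the lungs of drug-treated mice. Beyond counting error, 6 were higher and 1 was lower with amiodarone, against 19.5% of 13402 genes higher and 30.1% lower, or 49.6% in either direction. At a limit of 1.5-fold, F10, Plat and Plaur were higher and Procr was lower, and over all genes 5.23% were higher and 6.83% lower by this rule, together 12.1%. On the log2(FPKM + 1) scale the 9 genes had a median difference of 0.39, and all genes tested had one of -0.05. By role, all 3 procoagulant genes, 1 of 3 anticoagulant genes and 2 of 3 fibrinolytic genes were higher beyond counting error.

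Dabigatran alone was set against vehicle to see which genes differed in mice given the thrombin inhibitor without amiodarone. Here 4 of the 9 genes were higher and 2 lower beyond counting error, against 15.2% and 13.4% of 13373 genes, or 28.6% in either direction. The 4 higher genes, Thbd, Tfpi, Plat and Plaur, had ratios of 1.13 to 1.2. F13a1 and Procr were the lower genes, and both passed the limit of 1.5-fold, which 1.21% of all genes did in this direction, 1.17% upwards and 2.38% in either.

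Amiodarone + dabigatran was set against amiodarone to show how co-treatment differed from amiodarone alone. F10 and F13a1 were higher, and F3, Thbd, Plat and Plaur were lower beyond counting error, against 21.1% and 15.0% of 13261 genes, or 36.1% in either direction. None of the 9 genes passed the limit of 1.5-fold, while of all genes 2.19% were higher, 1.80% lower and 3.99% either by that rule. Differences in log2(FPKM + 1) had a median of -0.04 over the 9 genes and of 0.03 over all genes.

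The combination was also set against dabigatran, a pair of libraries that shares none with amiodarone and vehicle. In that pair 5 genes were higher and 2 lower beyond counting error, against 19.5% and 23.5% of 13379 genes, or 42.9% in either direction. F10 and F13a1 passed the limit of 1.5-fold upwards, as did 4.18% of all genes, with 4.05% downwards and 8.23% in either direction. Each of these pairs shares a library with dabigatran against vehicle and with the combination against amiodarone, so the 4 comparisons are not independent.

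**Figure D2:**
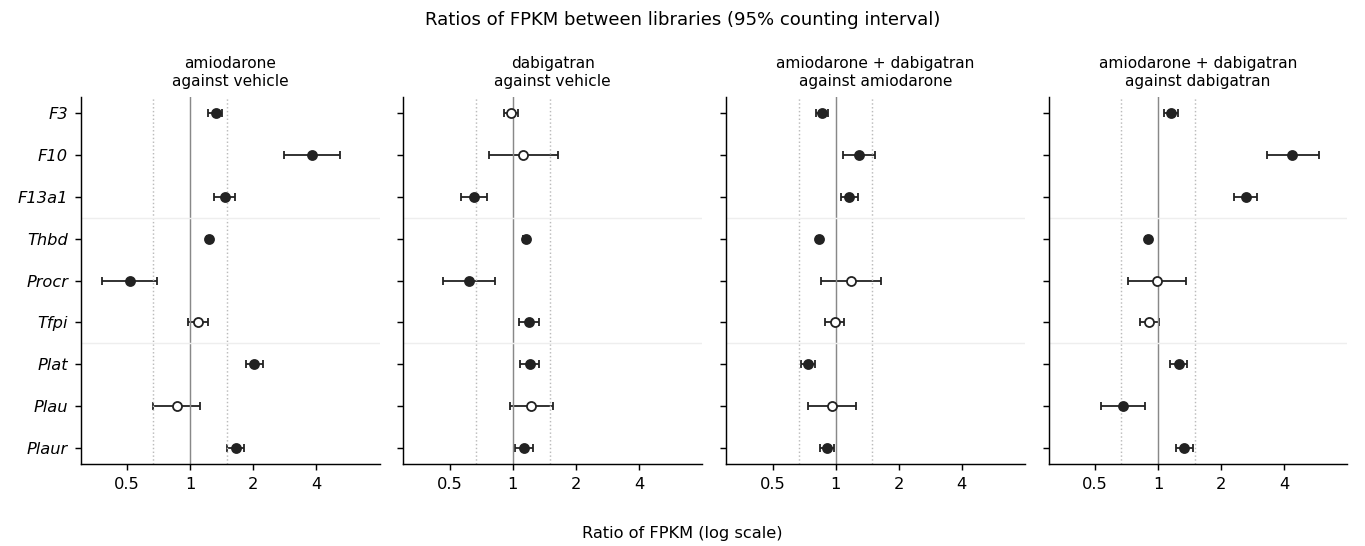
Ratio of FPKM on a log scale for each of the 9 genes in 4 comparisons, with the 95% counting interval. Filled points mark intervals that exclude 1, dotted lines mark 1.5-fold in either direction, and F10 lies far to the right in both comparisons that add amiodarone, at 3.79 and 4.37.

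F10 encodes factor X, which with factor V converts prothrombin to thrombin, and lies on chromosome 8 of GRCm38.p6 from 13037308 to 13056676. It had 56 reads in the vehicle library, 224 under amiodarone, 62 under dabigatran and 294 under both drugs. Both libraries with amiodarone were high, both without it were low, and the intervals of the 2 kinds did not overlap. The ratio of amiodarone to vehicle was 3.79 (2.81 to 5.17), and 107 of the 13402 genes tested, F10 among them, had a ratio at least as high. The combination over dabigatran gave 4.37 (3.31 to 5.84), reached by 46 of 13379 genes. Dabigatran alone differed from vehicle within counting error, at 1.12 (0.770 to 1.64). The combination was higher than amiodarone by a ratio of 1.30 (1.09 to 1.55).

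The genes whose ratios to vehicle in the 3 treated libraries were nearest to those of F10, among 6953 genes averaging 10 FPKM or more, were Fcgr4, Ms4a8a and Atp6v0d2. Their largest difference from F10 in log2 ratio was 0.34, 0.37 and 0.37. The limit of 10 FPKM favours genes that are high in the libraries with amiodarone, and it leaves out F7, which averaged 7.31 FPKM and was nearer to F10 at 0.24. Fcgr4, an activating receptor for immunoglobulin G on myeloid cells, had 3.64 FPKM in the vehicle library, 17.4 under amiodarone, 3.68 under dabigatran and 18.4 under both drugs. Atp6v0d2, a subunit of the vacuolar proton pump, had 7.44, 36.5, 8.43 and 40.1 FPKM in the same order.

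F10 lies between F7 and Proz, and these 3 neighbours were all higher with amiodarone. F7 encodes factor VII, the partner of tissue factor, and Proz encodes protein Z, a cofactor in the inhibition of activated factor X. F7, from 13025506 to 13035809, had 2.52 FPKM in the vehicle library, 11.3 under amiodarone, 2.99 under dabigatran and 12.5 under both drugs. Its ratio of amiodarone to vehicle was 4.47 (3.49 to 5.78), and that of the combination to dabigatran was 4.18 (3.33 to 5.28). Proz, from 13060584 to 13076026, had 1.02, 3.54, 0.58 and 2.08 FPKM in the same order, with ratios of 3.47 (2.43 to 5.05) and 3.59 (2.25 to 5.95). With dabigatran added to amiodarone, F7 differed within counting error at 1.11 (0.962 to 1.28). Proz was lower in the combination than with amiodarone alone, at a ratio of 0.588 (0.446 to 0.770).

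The order of genes along the chromosome was examined after the values of F7 and Proz had been seen. On the far side of F7 lies Mcf2l, a guanine nucleotide exchange factor gene, whose level was 9.39 FPKM in the vehicle library and 25.0 under amiodarone. Its ratios were 2.66 (2.46 to 2.88) for amiodarone over vehicle and 1.51 (1.40 to 1.63) for the combination over dabigatran, and the combination was at 0.679 (0.638 to 0.723) of amiodarone. On the far side of Proz lie Pcid2 and Cul4a, with amiodarone to vehicle ratios of 0.993 (0.896 to 1.10) and 1.02 (0.944 to 1.10). Beyond them, Lamp1 and Grtp1 were higher with amiodarone, at 1.32 (1.29 to 1.35) and 1.40 (1.18 to 1.68). For the combination over dabigatran Lamp1 was at 1.13 (1.11 to 1.16) and Grtp1 at 0.992 (0.831 to 1.18). The annotated ends of Proz and Pcid2 overlap, and whether the counting used the strand is not given in the sources used here. The part of shared reads in these values was not tested.

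**Figure D3:**
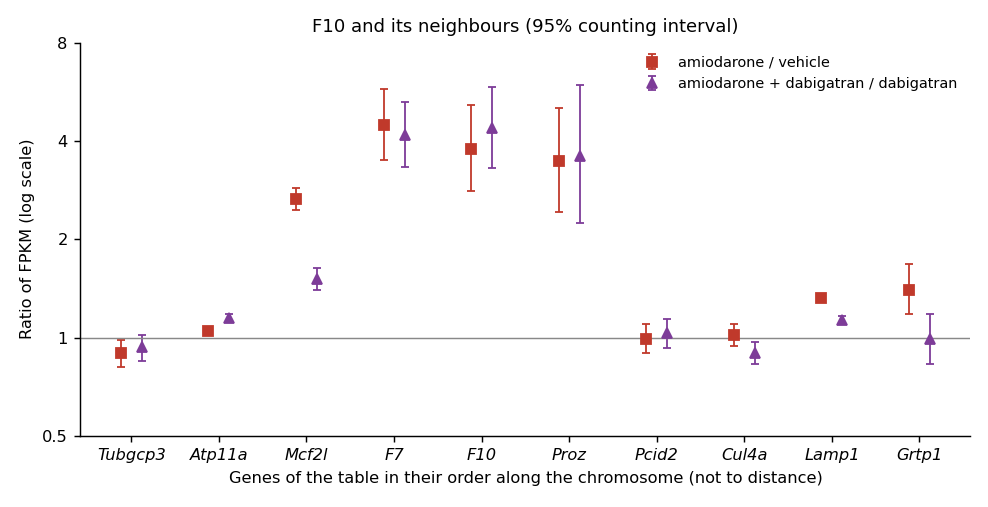
Ratio of FPKM on a log scale for F10 and 9 of its neighbours in their order along chromosome 8, for amiodarone over vehicle (squares) and amiodarone + dabigatran over dabigatran (triangles), with 95% counting intervals. F7, F10 and Proz have ratios of 3.47 to 4.47, Mcf2l has 2.66 and 1.51, and the other genes lie between 0.896 and 1.40.

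The 250 bases before a start site of F10 and of F7 are shown because these adjacent genes had alike ratios. They come from the RefSeq table of promoters on GRCm38.p6, which held windows for 6 of the 9 genes. The F10 window is chr8:13037058-13037307 and the F7 window chr8:13025784-13026033, both on the plus strand. The F10 window ends at the edge of the gene given above, and the F7 window precedes a transcript start at 13026034, which lies 528 bases inside the outer coordinates of F7. Capitals would mark matches on either strand to TATAAA, to the GC box GGGCGG, to the AP-1 motif TGANTCA or to the ETS core CCGGAA, and neither window holds any of these letters.
F10: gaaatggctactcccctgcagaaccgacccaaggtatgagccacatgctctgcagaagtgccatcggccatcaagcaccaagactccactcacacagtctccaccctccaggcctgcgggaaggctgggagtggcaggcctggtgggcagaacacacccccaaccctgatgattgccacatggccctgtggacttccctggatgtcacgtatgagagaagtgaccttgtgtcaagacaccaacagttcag
F7: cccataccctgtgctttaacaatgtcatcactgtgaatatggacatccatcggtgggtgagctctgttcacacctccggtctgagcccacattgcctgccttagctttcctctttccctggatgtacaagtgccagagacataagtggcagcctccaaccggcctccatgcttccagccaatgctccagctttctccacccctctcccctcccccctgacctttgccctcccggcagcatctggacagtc
Of 32851 such windows over all genes, 12.4% hold TATAAA, 32.7% the GC box, 6.75% the AP-1 motif and 12% the ETS core.

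F13a1 encodes the A chain of factor XIII, the transglutaminase that crosslinks fibrin, and is carried by monocytes, macrophages and platelets. It lies on chromosome 13 from 36867178 to 37050244. It had 7.31 FPKM in the vehicle library, 10.7 under amiodarone, 4.75 under dabigatran and 12.4 under both drugs. The dabigatran library was the lowest and the combination the highest, and none of the 4 intervals overlapped. The ratio to vehicle was 1.46 (1.30 to 1.64) for amiodarone and 0.650 (0.563 to 0.749) for dabigatran. Added to amiodarone, dabigatran went with a ratio of 1.16 (1.06 to 1.28), and the combination over dabigatran was at 2.61 (2.30 to 2.97). The amiodarone ratio with dabigatran was thus 1.79 times the ratio without it (counting interval 1.51 to 2.12).

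F3, on chromosome 3 from 121723537 to 121735052, was at 40.7 FPKM in the vehicle library, 53.6 under amiodarone, 40.0 under dabigatran and 46.1 under both drugs. The vehicle and dabigatran libraries were alike, amiodarone was the highest, and the combination lay between. The ratio of amiodarone to vehicle was 1.32 (1.22 to 1.41), that of the combination to dabigatran 1.15 (1.07 to 1.24), and that of the combination to amiodarone 0.861 (0.804 to 0.921). Dabigatran alone differed from vehicle within counting error, at 0.983 (0.909 to 1.06).

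The windows before F3 and Plaur are shown because both genes were higher in the libraries with amiodarone and both windows hold the AP-1 motif. They were picked for both traits, so that these go together is no result. The motif was in 3 of the 8 windows of the 9 genes, and in 6.75% of windows over all genes. The windows of F10 and F13a1, which were also higher with amiodarone, hold no AP-1 motif. The windows are chr3:121723287-121723536 for F3 and chr7:24462233-24462482 for Plaur, both on the plus strand of GRCm38.p6, with AP-1 motifs and GC boxes in capitals. The start used for Plaur is that of a transcript at 24462483, which lies 1546 bases inside the outer coordinates of the gene.
F3: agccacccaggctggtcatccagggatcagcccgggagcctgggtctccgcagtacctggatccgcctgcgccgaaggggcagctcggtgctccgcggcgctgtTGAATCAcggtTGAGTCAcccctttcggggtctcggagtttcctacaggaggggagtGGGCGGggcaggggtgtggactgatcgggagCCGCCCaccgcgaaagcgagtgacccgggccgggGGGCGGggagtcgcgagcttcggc
Plaur: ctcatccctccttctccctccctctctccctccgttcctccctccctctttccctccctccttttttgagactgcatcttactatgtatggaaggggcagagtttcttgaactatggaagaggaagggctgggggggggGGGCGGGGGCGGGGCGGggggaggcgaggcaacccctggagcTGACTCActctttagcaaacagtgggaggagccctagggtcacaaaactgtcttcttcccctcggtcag
In F3 the AP-1 motifs lie 146 to 140 and 135 to 129 bases before the start, with GC boxes from 89, 58 and 24 bases before it. In Plaur the AP-1 motif lies 69 to 63 bases before the transcript start at 24462483 and the GC boxes, which run into each other, between 111 and 95 bases before it. The third AP-1 motif was that of Procr, 154 to 148 bases before a transcript start at 155751217, 92 bases inside the gene's outer coordinates, a gene that was lower with amiodarone. GC boxes were found in 4 of the 8 windows, TATAAA in 1 and the ETS core in none. These are matches of letters and say nothing of binding.

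Thbd encodes thrombomodulin, which sits on endothelium and other lining cells, and lies on chromosome 2 from 148404471 to 148408188. It was at 198 FPKM in the vehicle library, 243 under amiodarone, 227 under dabigatran and 203 under both drugs. Each drug alone was higher than vehicle, and the combination lay near vehicle. With 12718 to 16687 reads its intervals were the narrowest of the 9 genes. The ratio to vehicle was 1.23 for amiodarone, beyond counting error, and 1.15 (1.12 to 1.17) for dabigatran. The combination was at 0.835 (0.817 to 0.854) of amiodarone and 0.894 (0.873 to 0.915) of dabigatran.

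Procr encodes the endothelial receptor that presents protein C to thrombomodulin-bound thrombin, and lies on chromosome 2 from 155751125 to 155755478. It was at 5.19 FPKM in the vehicle library, 2.67 under amiodarone, 3.22 under dabigatran and 3.17 under both drugs. The vehicle library was the highest, and the 3 treated libraries overlapped with each other. Amiodarone over vehicle was 0.514 (0.378 to 0.694) and dabigatran over vehicle 0.620 (0.465 to 0.824), from 69 to 130 reads. The combination differed from amiodarone, at 1.19 (0.856 to 1.65), and from dabigatran, at 0.984 (0.720 to 1.35), within counting error. The lower values of Procr thus rest on the vehicle library, in which cardiac muscle and liver markers were also highest, and the part of those tissues was not tested.

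Tfpi, on chromosome 2 from 84432855 to 84476775, was at 13.8 FPKM in the vehicle library, 15.1 under amiodarone, 16.4 under dabigatran and 14.9 under both drugs. These levels lay close together. As deposited, dabigatran over vehicle was beyond counting error at 1.19 (1.07 to 1.33), while amiodarone over vehicle was 1.09 (0.978 to 1.22) and the combination over dabigatran 0.908 (0.817 to 1.01). The last pair depended on the scaling, with 1.13 (1.01 to 1.27) for amiodarone over vehicle after rescaling by the median ratio and 0.875 (0.787 to 0.973) for the combination over dabigatran by total reads.

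Plat encodes tissue-type plasminogen activator, which works on fibrin, and lies on chromosome 8 from 22757722 to 22782848, apart from F10. It was at 15.2 FPKM in the vehicle library, 30.8 under amiodarone, 18.2 under dabigatran and 22.8 under both drugs. The 4 libraries were all distinct, with amiodarone the highest and the combination between amiodarone and dabigatran. Amiodarone over vehicle was 2.02 (1.84 to 2.22), a ratio that 369 of 13402 genes reached. The combination was at 0.739 (0.682 to 0.80) of amiodarone. Over dabigatran it was higher by 0.32 on the log2 scale, with an interval of the ratio from 1.14 to 1.37. Dabigatran alone was higher than vehicle at 1.2 (1.08 to 1.33). The amiodarone ratio with dabigatran was 0.618 (0.543 to 0.703) of the ratio without it.

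Plaur, the urokinase receptor gene on chromosome 7 from 24460937 to 24475970, was at 27.6 FPKM in the vehicle library, 45.4 under amiodarone, 31.1 under dabigatran and 41.3 under both drugs. Both libraries with amiodarone were above both without it. The ratios were 1.65 (1.5 to 1.81) for amiodarone over vehicle and 1.33 (1.21 to 1.46) for the combination over dabigatran. Co-treatment was at 0.911 (0.839 to 0.988) of amiodarone alone.

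Plau, the gene of its ligand, on chromosome 14 from 20836662 to 20843388, was at 3.35 FPKM in the vehicle library, 2.88 under amiodarone, 4.09 under dabigatran and 2.78 under both drugs. The 2 libraries with amiodarone were the lowest, but the vehicle library overlapped with both. Only the combination over dabigatran went beyond counting error, at 0.680 (0.531 to 0.868), while amiodarone over vehicle was 0.860 (0.667 to 1.11). Ligand and receptor thus differed in direction in the pair of dabigatran libraries, with Plaur higher and Plau lower.

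The other genes of the system were taken from lists. Among 17 further clotting factors 16 were in the table, and 9 of these stayed under 1 FPKM in every library: F2, F8, F9, F11, F12, Fga, Fgb, Klkb1 and Kng1. Of the 7 tested between amiodarone and vehicle, 3 were higher and 1 lower by at least 1.5-fold, where 5.23% and 6.83% of all genes were. Fgg and Kng2, which are 2 of the 3 higher genes, reached 1 FPKM in the amiodarone library and not in the vehicle library and so entered only because they were high there, and the count says nothing about the list. F7 has been described above. Fgg, the fibrinogen gamma chain, had 8 reads in the vehicle library, 52 under amiodarone, 11 under dabigatran and 20 under both drugs, and its level with amiodarone was 1.68 FPKM. Kng2, a kininogen gene, had 2.46 estimated reads with vehicle and 30.9 with amiodarone, a ratio of 11.7 (2.97 to 101), and Kng1 is a close copy with which its reads could be divided. F5, whose product is the cofactor of activated factor X, was at 1.72 FPKM in the vehicle library, 1.11 under amiodarone, 1.81 under dabigatran and 2.80 under both drugs. Its ratio of amiodarone to vehicle was 0.645 (0.522 to 0.796).

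The most abundant of these factors was Vwf, which encodes von Willebrand factor, a product of endothelium and megakaryocytes. It had 62.4 FPKM in the vehicle library, 86.0 under amiodarone, 83.5 under dabigatran and 65.9 under both drugs. As with Thbd, each drug alone was higher than vehicle, at 1.38 (1.34 to 1.41) for amiodarone and 1.34 (1.30 to 1.38) for dabigatran. The combination was below each of them, at 0.767 (0.748 to 0.786) of amiodarone and 0.789 (0.769 to 0.810) of dabigatran. The endothelial markers Pecam1, Cdh5, Tek and Tie1 also were higher with each drug alone and lower in the combination. Cldn5, Kdr, Egfl7 and Emcn, of the same list, did not have this pattern. Vkorc1, which recycles vitamin K, was at 56.4 FPKM in the vehicle library and 51.8 under amiodarone, within counting error.

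Of 10 further genes listed with the anticoagulants, not all of which act as such, 9 were in the table. With amiodarone 2 of the 7 tested were higher and 2 lower by at least 1.5-fold, against 5.23% and 6.83% of all genes. Serpind1, Proc and Tfpi2, 3 of these 4, reached 1 FPKM in 1 library of the pair alone, so this count too describes the filter as much as the list. Proz and Serpind1, the gene of heparin cofactor II, were the higher genes, the latter at 0.98 and 1.70 FPKM, a ratio of 1.73 (1.14 to 2.69). Proc, the gene of protein C, had 29 reads with vehicle and 14 with amiodarone, a ratio of 0.462 (0.226 to 0.903). Tfpi2 had 31 and 16 reads, a ratio of 0.50 (0.255 to 0.942). Anxa5 and Gas6, the most abundant of the list, had ratios of 1.10 (1.07 to 1.13) and 0.960 (0.928 to 0.992).

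Of 12 further genes of fibrinolysis 11 were in the table, and 8 were tested. Thbs1, which encodes thrombospondin 1, was the 1 gene past 1.5-fold, lower with amiodarone as 6.83% of all genes were, at 64.7 FPKM in the vehicle library, 38.5 under amiodarone, 77.9 under dabigatran and 26.6 under both drugs. Both libraries with amiodarone were the lower, with ratios of 0.596 (0.573 to 0.619) for amiodarone over vehicle and 0.341 (0.327 to 0.356) for the combination over dabigatran. Plasminogen itself (Plg) had 0 to 5 reads per library. Anxa2 and S100a10, which together bind plasminogen and Plat at the cell surface, were the most abundant, with ratios of 1.0 (0.974 to 1.03) and 1.10 (1.02 to 1.18).

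Of the protease-activated receptor family, F2r had 90.4 FPKM in the vehicle library and 110 under amiodarone, and the ratio was 1.22 (1.18 to 1.27). F2rl1 was at 10.6 and 10.7 FPKM, within counting error.

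**Figure D4:**
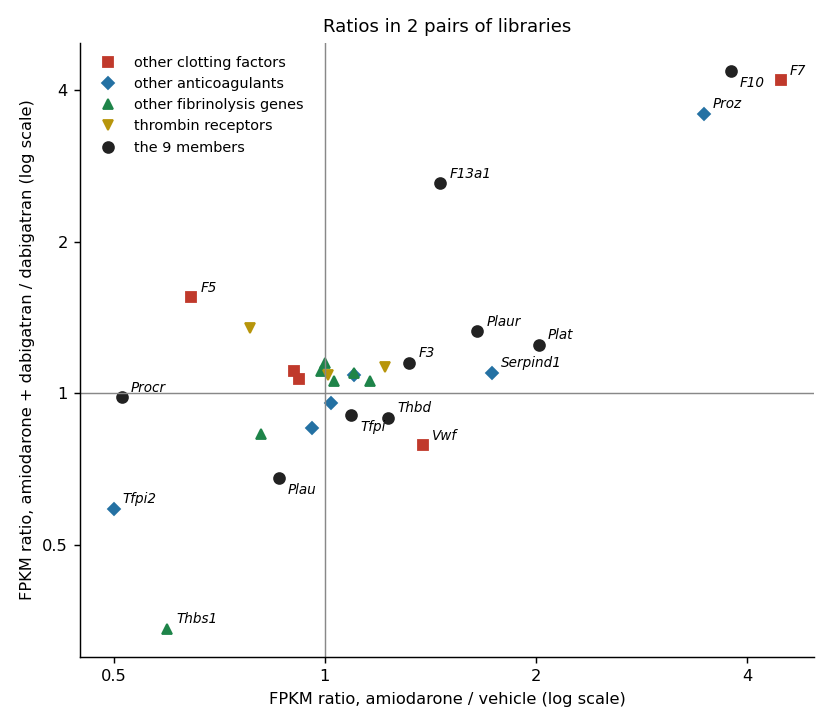
Ratio of amiodarone to vehicle (horizontal axis, log scale) against the ratio of amiodarone + dabigatran to dabigatran (vertical axis, log scale) for the 9 genes and 21 further genes tested in both pairs, 1 point per gene. F10, F7 and Proz lie apart at the upper right, and Thbs1 at the lower left with ratios of 0.596 and 0.341.

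Cell markers moved with several of these genes. All 9 macrophage markers were higher with amiodarone than with vehicle, with a median log2 difference of 0.75, and all 9 were higher in the combination than with dabigatran, with a median of 0.95. Their summed level was 3498 FPKM in the vehicle library, 5095 under amiodarone, 3799 under dabigatran and 4832 under both drugs, most of it from Lyz2. Cd68 was at 28.6 FPKM in the vehicle library, 77.2 under amiodarone, 25.8 under dabigatran and 89.2 under both drugs. The 7 neutrophil markers summed to 91.2, 596, 68.1 and 431 FPKM in the order vehicle, amiodarone, dabigatran and combination. F3, F10, F13a1, Plat and Plaur all had their higher values in the same libraries as these lists. Between the combination and amiodarone, the neutrophil sum was at 0.723 and the macrophage sum at 0.948. The macrophage sum followed Lyz2, at 4907 FPKM under amiodarone and 4618 under both drugs. Of the 9 macrophage markers 6 were higher in the combination than with amiodarone, with a median log2 difference of 0.18. F10 and F13a1 were higher in that pair, and F3, Plat and Plaur lower. The part of these cells in the differences was not tested. In whole lung more cells of a type cannot be told apart from more RNA per cell.

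The 8 endothelial markers summed to 1320 FPKM in the vehicle library, 1339 under amiodarone, 1499 under dabigatran and 1231 under both drugs. All 8 were higher with dabigatran than with vehicle, and 7 of 8 were lower in the combination than with amiodarone. Thbd, Tfpi, Plat, Plaur and Vwf were also higher with dabigatran than with vehicle. Procr, at 0.620, and F13a1, at 0.650, were lower in that pair. Between amiodarone and vehicle the sum was at a ratio of 1.01, with 4 of the 8 markers higher. Single markers ran from 0.746 for Kdr to 1.17 for Tek. Plat differed by 2.02, Vwf by 1.38 and Thbd by 1.23 in that pair, and the part of endothelium in these genes was not tested. Mesothelial markers summed to 94.6 FPKM in the vehicle library, 46.3 under amiodarone, 93.4 under dabigatran and 106 under both drugs, and all 4 were lower with amiodarone. Procr was lower than vehicle with amiodarone and with dabigatran, and in the dabigatran library the mesothelial sum was at a ratio of 0.988 to vehicle. The part of mesothelium in the values of Procr was not tested.

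Platelet markers summed to 88.6, 54.4, 93.8 and 127 FPKM with vehicle, amiodarone, dabigatran and the combination, and all 6 were lower with amiodarone than with vehicle. F13a1 was higher in that comparison, and lower with dabigatran, where this list was at 1.06 of vehicle. The part of platelets in the values of F13a1 was not tested. The liver markers Serpina1a and Cyp3a11 were at 0 in all 3 treated libraries, Ttr in both libraries with amiodarone and Apoa1 with amiodarone alone. With vehicle these markers were only at 0.08 to 0.25 FPKM, so values of 0 carry little weight. F10 and F7 were at their highest in the libraries with amiodarone, and the part of liver RNA in them was not tested. Alveolar type 2 markers summed to between 24872 and 26765 FPKM, and alveolar type 1 markers to between 3859 and 4070 FPKM. Fibroblast markers were at a ratio of 0.735 with amiodarone over vehicle, smooth muscle markers at 0.629 and airway markers at 0.597.

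**Figure D5:**
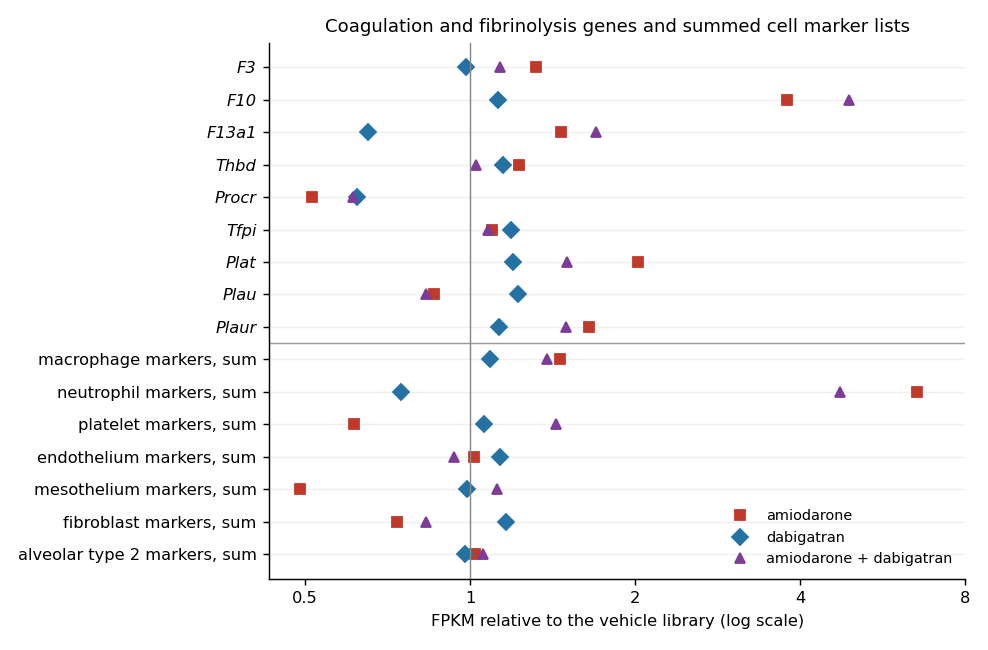
FPKM relative to the vehicle library on a log scale for the 9 genes and, below the line, for the sums of 7 marker lists, with 1 point for each treated library. With amiodarone the neutrophil sum is at 6.54, the macrophage sum, most of it from Lyz2, at 1.46 and the endothelial sum at 1.01.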

How the data were processed

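Per the labels, poly(A) RNA from lung was sequenced by DNBseq. The authors mapped the reads with HISAT and Bowtie2 to GRCm38.p6 and estimated expression with RSEM. The deposited table gives each library estimated counts (reads) and a normalized value of unnamed unit. The deposited values are read here as FPKM, since reads per unit of value differ between amiodarone and vehicle by 1.07, as do total reads. The 8 columns of averages over 2 libraries were left aside.

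Ratios are ratios of FPKM. Reads were rounded to whole numbers, and Clopper-Pearson intervals at 95% (SciPy 1.17.1, Python 3.11.15) were rescaled to FPKM. Ratios of ratios carry intervals from the log of the reads. Both cover counting error only. A count of 0 allows 3 reads, or 1.71e-05% of the vehicle library. Genes reaching 1 FPKM in a compared library were tested, with a limit of 1.5-fold. Medians use log2(FPKM + 1), which understates changes of low genes. The study's own Z scores were not recomputed.

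The 9 genes and the lists were chosen with earlier results of these data known. Named are all 9 genes, listed genes past 1.5-fold between amiodarone and vehicle, the 2 most abundant genes of each pathway list, and selected markers; other names were chosen after their values were seen. Of the gene identifiers, 99.4% matched RefSeq, from which coordinates come. The intervals and calls were run on simulated reads with counting error alone, the error that the intervals assume. That run says nothing of the spread between animals. Alternatives were other scalings, fold limits, filters and a pseudocount of 0.1. A planned search of protein sequences was not run. A result on 1 listed gene is not reported here.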

Additional observations from a re-analysis of the deposited data

Results flagged for a closer look

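In 4 of the 9 genes a drug went with opposite differences in the absence and in the presence of the other drug, both beyond counting error. The same held for 9.65% of the 13536 genes with at least 1 FPKM in any library. With 1 library per group none of these contrasts was tested across animals. Thbd was higher with amiodarone than with vehicle, at a ratio of 1.23, and lower with the combination than with dabigatran, at 0.894. The second ratio was 0.729 of the first (counting interval 0.706 to 0.753), and dabigatran went with opposite differences in the same way, at 1.15 without amiodarone and 0.835 with it.

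Plat and Plaur were higher with dabigatran than with vehicle, at 1.2 and 1.13, and lower when dabigatran was added to amiodarone, at 0.739 and 0.911. For Plat the second ratio was 0.618 of the first (0.543 to 0.703), and for Plaur it was 0.808 (0.710 to 0.919). F13a1 went the other way, at 0.650 with dabigatran alone and 1.16 when it was added to amiodarone, a ratio of 1.79 between them (1.51 to 2.12). All 4 contrasts use the same 4 libraries, so the genes do not support each other.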

How the results depend on the processing

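Of 108 ratios recomputed under other scalings of the libraries, 107 kept their direction and their side of the 1.5-fold call, and no ratio moved by more than 0.07 on the log2 scale. F13a1 passed 1.5-fold between amiodarone and vehicle after rescaling by the median ratio over genes, at 1.51. The interval came to exclude 1 in 2 of the 108, both for Tfpi, at 1.13 for amiodarone against vehicle by the median ratio and at 0.875 for the combination against dabigatran by total reads. The number of genes called depended on the limit. With a limit of 2-fold, 2 of the 9 genes were called between amiodarone and vehicle in place of 4, and 0 between dabigatran and vehicle in place of 2. A limit of 0.32 on the log2 scale, the lowest fold limit tried, called 6 between amiodarone and vehicle in place of 4. It called 2 between the combination and amiodarone in place of 0, and 4 between the combination and dabigatran in place of 2. Between dabigatran and vehicle the count stayed at 2. By the interval alone the counts were 7 for amiodarone, 6 for dabigatran, 6 for the combination against amiodarone and 7 for the combination against dabigatran. Filters on low values and the other scalings left every count within 1.5 times. With at least 5 FPKM in either library, 3 genes were called between amiodarone and vehicle in place of 4. The gene left out was F10, at 1.21 FPKM with vehicle and 4.58 with amiodarone. The median over the 9 genes between amiodarone and vehicle was 0.39 as deposited and 0.43 after rescaling by the median ratio. No paired analysis was possible because each group has 1 library, and leaving out a replicate was not possible for the same reason. F10, Procr and Plau rest on 56 to 294 reads per library, so smaller differences in them were not detectable at this depth.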

Other observations

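F5 was lowest with amiodarone and highest with the combination, at 1.11 and 2.80 FPKM, a ratio of 2.52 (2.09 to 3.06), and the summed platelet markers had their lowest and highest values in the same libraries, at 54.4 and 127 FPKM. The mesothelial markers Upk3b and Lrrn4 were also lowest with amiodarone, at 19.4 and 4.42 FPKM, against 44.6 and 12.9 FPKM with vehicle and 45.2 and 13.8 FPKM with the combination.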
